A study of Mus musculus with 12 samples.

Results

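The genes described here are 9 transcription factors of mesoderm and endoderm, the inner germ layers that arise through the primitive streak: T, Gsc, Evx1, Mixl1 and Mesp1, taken as mesoderm factors, and Foxa2, Gata4, Gata6 and Hnf4a, taken as endoderm factors. They were chosen by name from a fixed list, among 21883 protein-coding genes of the RefSeq annotation, and all 9 were matched by symbol. Each was described by the SOX2 regions whose midpoint lay within 100 kb of the gene's span. SOX2 binding had been mapped with an anti-Sox2 antibody in E14, an embryonic stem cell line of the mouse, by sequencing of immunoprecipitated chromatin (ChIP-seq). The 12 libraries fell into 4 groups of 3 replicates: mitotic ChIP, mitotic input, asynchronous ChIP and asynchronous input. All groups grew with leukemia inhibitory factor in 10% serum, and in the presence of 2 kinase inhibitors, CHIR99021 (3 μM, against GSK3) and PD184352 (0.8 μM, against MEK). Mitotic cells had in addition been held overnight in nocodazole, which blocks the spindle, fixed, and sorted as positive for the mitotic histone mark H3S10p. Asynchronous cells had no such arrest or sort.

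The replicates of a condition were pooled before regions were called, which gave 84 mitotic and 10351 distinct asynchronous regions. The lists hold positions only, so no value below has a replicate error, no test was made, and the sequencing depth behind a region is unknown. The mitotic list carries the looser threshold in its name (q of 0.05, against 0.01 for the asynchronous list). A gene without a region is a gene without a listed region, which does not show that SOX2 was absent there. All coordinates are on mm10, counted from 1.

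SOX2 is an HMG-box factor that works with the POU factor OCT4 (gene Pou5f1) in pluripotent cells, often on a composite SOX and POU sequence. Genes of the primitive streak are held low in pluripotent cells and are switched on by Nodal, WNT and BMP signals when the cells leave that state. T, or Brachyury, and Mixl1 mark the streak, Gsc its anterior end and the organizer, and Mesp1 the earliest heart-forming mesoderm. Foxa2 and Gata6 act early in endoderm, Gata4 follows, and Hnf4a is a nuclear receptor of visceral endoderm and liver. Gsc and Mixl1 also act in cells that give rise to endoderm, so the division into layers is a convention.

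In mitotic cells, 1 of the 9 genes, Mixl1, had a region within 100 kb, and in asynchronous cells 8 of the 9 had at least 1, Gata6 being the exception. Of all protein-coding genes, 1.41% had a mitotic region and 62.4% had an asynchronous region within that distance. In all, 1 mitotic and 16 asynchronous regions lay near these genes, which was 1.19% of the mitotic and 0.155% of the asynchronous list. T had 4 asynchronous regions, Evx1 and Hnf4a had 3 each, Gsc had 2, Mixl1, Mesp1, Foxa2 and Gata4 had 1 each and Gata6 had 0. The 9 genes had a median of 1 and a mean of 1.78 asynchronous regions per gene, against a median of 1 and a mean of 1.28 over all protein-coding genes. At least 3 regions were found at 3 of the 9 genes and at 16.9% of protein-coding genes, and at least 4 at 1 of the 9 (T) and at 8.02%. Counts over all genes ran to 15, and the highest of the 9, the 4 of T, was shared with 4.24% of protein-coding genes.

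**Figure D1:**
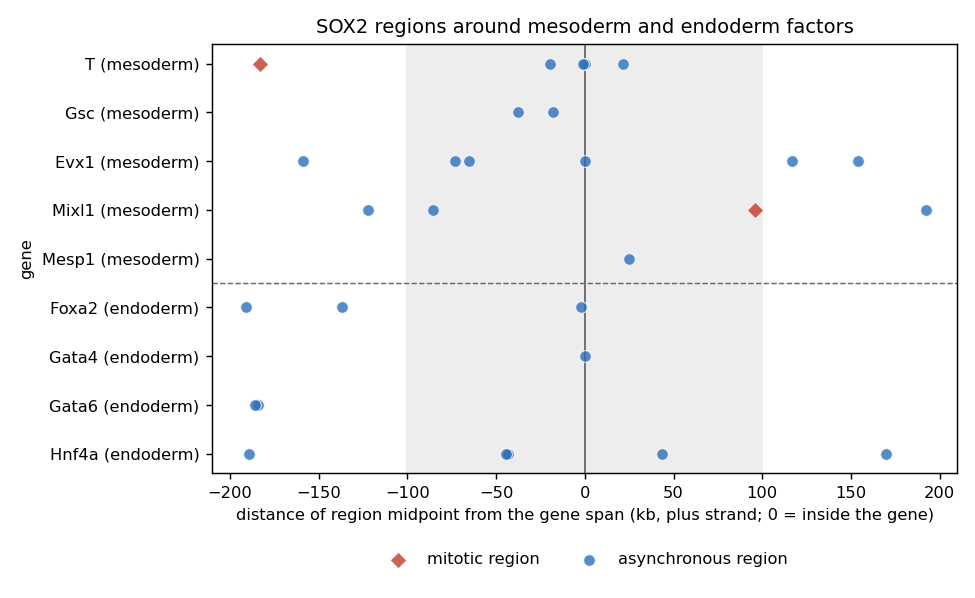
SOX2 regions around the 9 factors, by distance of the region's midpoint from the gene span in kb (lower coordinates to the left, 0 inside the gene); red diamonds are mitotic and blue circles asynchronous regions, the grey band is the 100 kb window, and the dashed line divides mesoderm from endoderm factors. Regions up to 200 kb are drawn. T is the most densely surrounded of the 9 within the band, with 4 asynchronous regions, and the mitotic diamond in the band belongs to Mixl1.

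**Figure D2:**
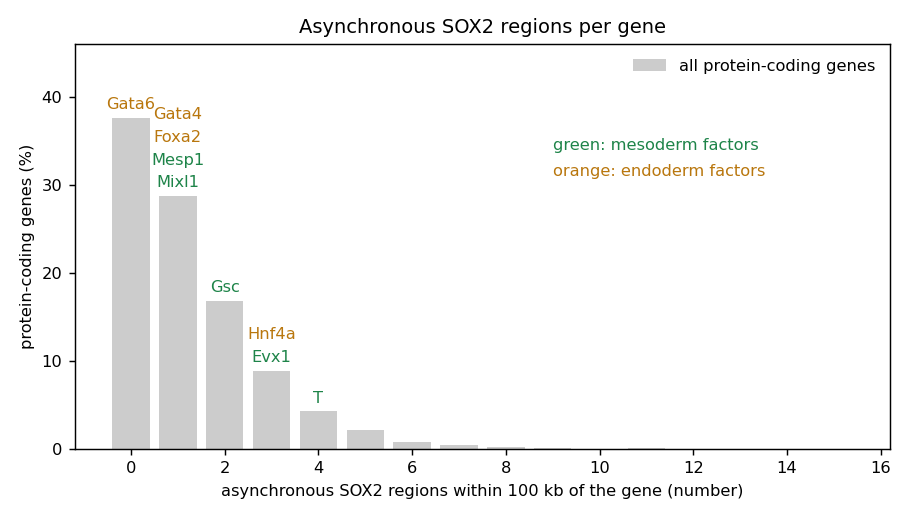
Share of all 21883 protein-coding genes (%) with a given number of asynchronous regions within 100 kb; the names of the 9 factors stand above the bar of their own count. Names above 3 and 4 (Evx1, Hnf4a and T) are in the right tail, and Gata6 stands above 0, with 37.6% of all genes.

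T had the most regions of the 9. Its span is at chromosome 17, 8434423 to 8442496, on the plus strand. In mitotic cells no region was within 100 kb; the nearest, at 8251581 to 8251687, lay 183 kb upstream inside the chemokine receptor gene Ccr6. In asynchronous cells, a region at 8437310 to 8437528, 219 bp wide, lay inside the gene, with its midpoint 3.00 kb past the start site. A second, at 8433357 to 8433549 (193 bp), lay 0.970 kb upstream of the gene, inside LOC115486424, a predicted gene that overlaps the first bases of T. The others were at 8414439 to 8414763 (325 bp), 19.8 kb upstream and inside the neighbouring gene T2, and at 8463613 to 8463915 (303 bp), 21.3 kb downstream and in no annotated gene. The regions thus flank the gene on both sides within 22 kb, and T was the nearest protein-coding gene for 2 of the 4. The 2 nearest the start site were narrow for their list (width percentiles 21.8 and 9.76), and the 2 further out were close to its middle (61.3 and 54.5).

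No region touched the annotated 300 bp promoter window of T (250 bases before the start site and 50 after), although the second of its regions ended less than 1 kb before that start. The 250 bases before the start site, from RefSeq on GRCm38.p6 (mm10), are shown because they lie between the 2 regions closest to the gene. They are chr17:8434173-8434422 on the plus strand, 62.8% G and C, in lower case because none of the motifs named below was found.
T promoter: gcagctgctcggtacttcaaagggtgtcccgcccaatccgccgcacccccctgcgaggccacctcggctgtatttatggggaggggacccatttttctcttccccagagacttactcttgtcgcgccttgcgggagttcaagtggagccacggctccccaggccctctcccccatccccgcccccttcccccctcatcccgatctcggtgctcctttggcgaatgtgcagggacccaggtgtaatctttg

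Evx1, an even-skipped homeobox factor of the streak, holds the widest of the 16 regions. The gene lies at chromosome 6, 52313498 to 52318389, on the plus strand, at the end of the HoxA cluster. The nearest mitotic region was 3019 kb away. The asynchronous region inside the gene, at 52314585 to 52315079, was 495 bp wide (width percentile 90.7) and its midpoint was 1.33 kb past the start site of Evx1. That midpoint, 52314832, is also the annotated start site of Evx1os, a long noncoding RNA gene that runs the opposite way through the first part of Evx1. The other regions within 100 kb were at 52248019 to 52248333 (315 bp), 65.3 kb away and inside Hoxa11os, and at 52240243 to 52240606 (364 bp), 73.1 kb away and inside Hoxa10. Both lay nearer to Hox genes, which pattern the body axis, than to Evx1, so that Evx1 was the nearest protein-coding gene for 1 of its 3 regions.

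The region inside Evx1 was the only 1 of the 16 to meet an annotated promoter window, that of Evx1os; of 32851 such windows in the RefSeq table, 512 (1.56%) met an asynchronous region. The shared stretch, chr6:52314783-52315079 on the minus strand, is 297 bp long, or 60.0% of the region, and is shown because it is SOX2-bound sequence by these lists. It was searched on both strands for the SOX letters CATTGT and CTTTGT and the POU octamer ATGCAAAT. The composite SOX-POU motif (CATTGT, any base, then the octamer, which it contains) was sought too, and the promoters of the 6 factors with a window were searched alike. No match was found in the shared stretch, and the remainder of the region was not searched. Of the 512 windows that met an asynchronous region, 26.8% held CATTGT, 34.4% CTTTGT, 4.88% the octamer and 0% the composite. Over all 32851 windows, searched in their full 300 bp, the shares were 12.6%, 18.7%, 1.74% and 0%.
Evx1 region at Evx1os: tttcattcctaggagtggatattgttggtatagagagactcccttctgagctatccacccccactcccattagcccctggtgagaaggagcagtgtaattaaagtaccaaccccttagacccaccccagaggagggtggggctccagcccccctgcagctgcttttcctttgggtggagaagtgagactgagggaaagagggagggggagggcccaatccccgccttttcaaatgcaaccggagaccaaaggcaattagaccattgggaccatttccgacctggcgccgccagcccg

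Upstream of Evx1 itself, the 250 bases before the start site hold the octamer on the minus strand, at bases 125 to 132 of the stretch, printed here in capitals as it reads on the plus strand. These bases, chr6:52313248-52313497, are 49.6% G and C and end 1.09 kb before the region begins. Among the 32851 windows, 1.60% hold the octamer within the 250 bases before the start site, 10.7% hold CATTGT, 16.5% hold CTTTGT and 0% hold the composite. A match of letters is no measure of binding.
Evx1 promoter: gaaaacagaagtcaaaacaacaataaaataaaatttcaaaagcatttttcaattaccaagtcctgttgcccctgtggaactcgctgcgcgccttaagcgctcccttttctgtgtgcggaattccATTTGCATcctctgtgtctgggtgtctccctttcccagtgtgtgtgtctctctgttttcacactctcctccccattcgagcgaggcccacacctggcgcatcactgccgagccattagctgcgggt

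The remaining mesoderm factors had regions only at a distance. The nearest mitotic regions were 252 kb from Gsc and 29985 kb from Mesp1. In asynchronous cells, Gsc, a homeobox repressor of the organizer (chromosome 12, 104471209 to 104473236, minus strand), had 2 regions, both downstream of the gene. The nearer, at 104452940 to 104453432, was 493 bp wide (width percentile 90.5) and 18.0 kb from the gene, which was its nearest. The further, at 104433206 to 104433500 (295 bp), was 37.9 kb from Gsc and 19.0 kb from Serpina3n, a protease inhibitor gene. Mesp1, a basic helix-loop-helix factor (chromosome 7, 79792241 to 79793590, minus strand), had 1 region, 25.0 kb upstream at 79818404 to 79818691 (288 bp). That region lay 3.26 kb from the peptidase gene Anpep and 5.12 kb from Mesp2, the neighbouring factor of somite formation, so it is counted for both Mesp genes.

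Mixl1, a paired-type homeobox factor, was the gene with a region from each condition. Its span is at chromosome 1, 180693043 to 180697034. The mitotic region, at 180793071 to 180793198, was 128 bp wide (width percentile 53.6 of the mitotic list) and lay 96.1 kb from Mixl1, beyond its end coordinate. Its nearest protein-coding gene was H3f3a, which encodes a histone H3.3, at 9.43 kb. The asynchronous region, at 180607429 to 180607690 (262 bp), lay 85.5 kb from Mixl1 on the other side, and its nearest gene was Parp1, a DNA repair enzyme, at 6.56 kb. The mitotic region overlapped no asynchronous region, and the closest to it was 95.4 kb away, at 180888572 to 180889090 near the Nodal antagonist gene Lefty2. Of the regions counted for Mixl1, the mitotic one lay just inside the 100 kb limit, and neither was within 50 kb of the gene. Of the 9 genes, 0 had a mitotic region within 10 or 50 kb and 0 were the nearest gene of such a region, against 0.343%, 0.836% and 0.379% of protein-coding genes. Within 200 kb there were 2, Mixl1 and T, against 2.43%. Just outside the limit lay asynchronous regions 117 kb from Evx1 and 122 kb from Mixl1.

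Among the endoderm factors, Foxa2, a forkhead factor that opens chromatin (chromosome 2, 148042877 to 148046969, minus strand), was 15033 kb from the nearest mitotic region and close to an asynchronous one. The asynchronous region was at 148040774 to 148041052 (279 bp), 1.96 kb downstream of the gene's end, in no annotated gene. Foxa2 stands alone, with no other protein-coding gene within 100 kb and 348 kb to the next. It was also the nearest gene of regions further out, at 147905460 to 147906083, 137 kb downstream and 624 bp wide (width percentile 97.4), and at 147851571 to 147851765 (195 bp), 191 kb downstream. All 3 lay on the downstream side, and the widest was outside the 100 kb window. RefSeq gives 3 start sites for Foxa2, and the 250 bases before the outermost, chr2:148046970-148047219 on the minus strand, are shown as the promoter of the endoderm factor with the closest region outside the gene. No listed motif was found in them, and CTTTGT was found before 1 of the inner start sites.
Foxa2 promoter: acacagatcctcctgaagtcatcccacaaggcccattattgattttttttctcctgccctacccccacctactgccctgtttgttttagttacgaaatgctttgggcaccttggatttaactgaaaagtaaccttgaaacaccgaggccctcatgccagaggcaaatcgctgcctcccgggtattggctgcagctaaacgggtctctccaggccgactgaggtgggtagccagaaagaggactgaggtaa

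The GATA factors differed in what lay around them. Mitotic regions were 48896 kb from Gata4 and 1092 kb from Gata6 at the nearest. In asynchronous cells, Gata4 (chromosome 14, 63198914 to 63271712) had 1 region, inside the gene at 63213165 to 63213353, 189 bp wide (width percentile 7.85). Gata6, which drives primitive endoderm in the early embryo (chromosome 18, 11052510 to 11085636), had none within 100 kb. Its nearest were a pair at 10868767 to 10868949 (183 bp) and 10866080 to 10866602 (523 bp), 184 and 186 kb away, both of which had Mib1, a ubiquitin ligase of Notch signalling, as nearest gene. Like Foxa2, Gata6 had no other protein-coding gene within 100 kb.

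Hnf4a is at chromosome 2, 163506811 to 163572907, on the plus strand. The nearest mitotic region, inside the cell cycle gene Mybl2, was 427 kb upstream. Hnf4a had 3 asynchronous regions, all 43.3 to 44.2 kb from the gene. Those at 163463398 to 163463673 (276 bp) and 163462480 to 163462731 (252 bp) lay upstream, 43.3 and 44.2 kb away and 0.666 kb apart. The third, at 163616408 to 163616664 (257 bp), lay 43.6 kb downstream, inside Ttpal. The nearest gene of the upstream pair was Fitm2, a lipid droplet gene, so none of the 3 regions had Hnf4a as nearest gene.

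Ordered by the distance of the nearest asynchronous region, T, Evx1 and Gata4 had a region inside the gene, Foxa2 at 1.96 kb, Gsc at 18.0 kb, Mesp1 at 25.0 kb, Hnf4a at 43.3 kb, Mixl1 at 85.5 kb and Gata6 at 184 kb. The median was 18.0 kb for the 9 genes and 62.0 kb over all protein-coding genes. Within 10 kb, 4 of the 9 (44.4%) had a region, namely T, Evx1, Foxa2 and Gata4, against 23.7% of all protein-coding genes, and within 50 kb 7 of the 9 (77.8%) had one, against 45.5%. Of the 16 asynchronous regions, 3 lay inside 1 of the 9 genes, and for 6 the factor was the nearest protein-coding gene; the other 10 lay nearer to a neighbour. By nearest gene, 5 of the 9 factors had a region, and 25.8% of all protein-coding genes were the nearest gene of at least 1. Within 200 kb all 9 had a region, against 79.8% of protein-coding genes. For the genes with a stated strand, 7 regions lay upstream and 5 downstream.

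Mesoderm factors had more asynchronous regions per gene than endoderm factors, but the counts overlapped. The counts were 4, 3, 2, 1 and 1 for T, Evx1, Gsc, Mixl1 and Mesp1, and 3, 1, 1 and 0 for Hnf4a, Foxa2, Gata4 and Gata6. The mesoderm factors averaged 2.2 regions (11 in all, median 2) and the endoderm factors 1.25 (5 in all, median 1), a ratio of 1.76. Over all protein-coding genes the mean was 1.28 and the median 1, so the endoderm mean did not exceed that of all genes. Per 100 kb searched, the means were 1.07 and 0.496 regions, against 0.520 over all protein-coding genes. The endoderm genes are longer (median span 49.6 kb, against 3.99 kb for the mesoderm genes and 17.2 kb over all protein-coding genes). Within 100 kb, 5 of 5 mesoderm and 3 of 4 endoderm factors had a region, against 62.4% of all protein-coding genes. Within 10 kb the counts were 2 of 5 and 2 of 4, against 23.7%. The ratio of means was 3.30 without Hnf4a, 1.40 without T and 1.32 without Gata6, and 1.16 with a window of 200 kb, so that it moved with single genes and with the window. In mitotic cells 1 mesoderm factor and 0 endoderm factors had a region within 100 kb, and 1.41% of all protein-coding genes had one.

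**Figure D3:**
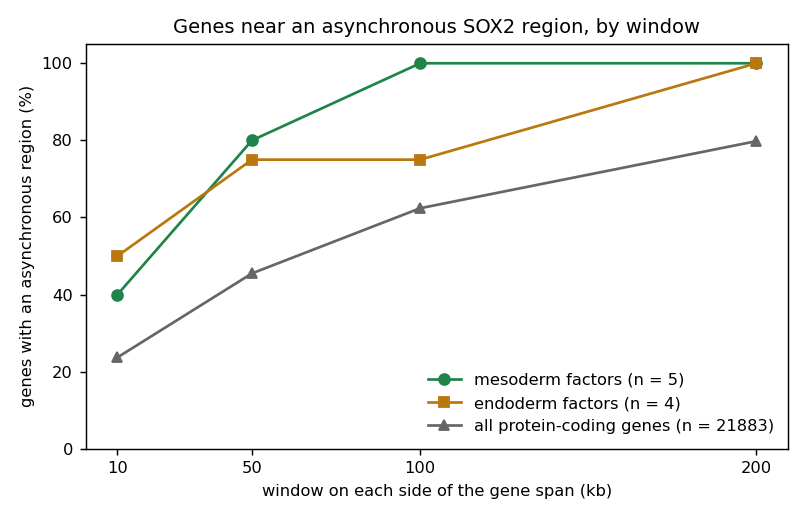
Share of genes (%) with at least 1 asynchronous region, by the window searched on each side of the gene span (10, 50, 100 and 200 kb), for the 5 mesoderm factors, the 4 endoderm factors and all 21883 protein-coding genes. By this share both layers lie above all genes at each window. By mean count within 100 kb the endoderm factors do not (1.25, against 1.28 over all genes). Which layer has the higher share changes between 10 kb (2 of 5 mesoderm and 2 of 4 endoderm factors) and 100 kb (5 of 5 and 3 of 4).

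Within 100 kb, regions near mesoderm factors included wider ones than those near endoderm factors, a difference that was not tested. The regions near mesoderm factors were 193 to 495 bp wide with a median of 303 bp, and 7 of the 11 were wider than the median of all asynchronous regions, 289 bp (middle 50% of that list, 226 to 381 bp). The regions near endoderm factors were 189 to 279 bp wide with a median of 257 bp, and 0 of the 5 were wider than that median. Between 100 and 200 kb both layers had regions above and below that median. Those of endoderm factors were 183 and 523 bp (Gata6), 195 and 624 bp (Foxa2) and 242 and 255 bp (Hnf4a). Those of mesoderm factors were 210, 409 and 427 bp (Evx1) and 188 and 519 bp (Mixl1). Width is no measure of binding strength.

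**Figure D4:**
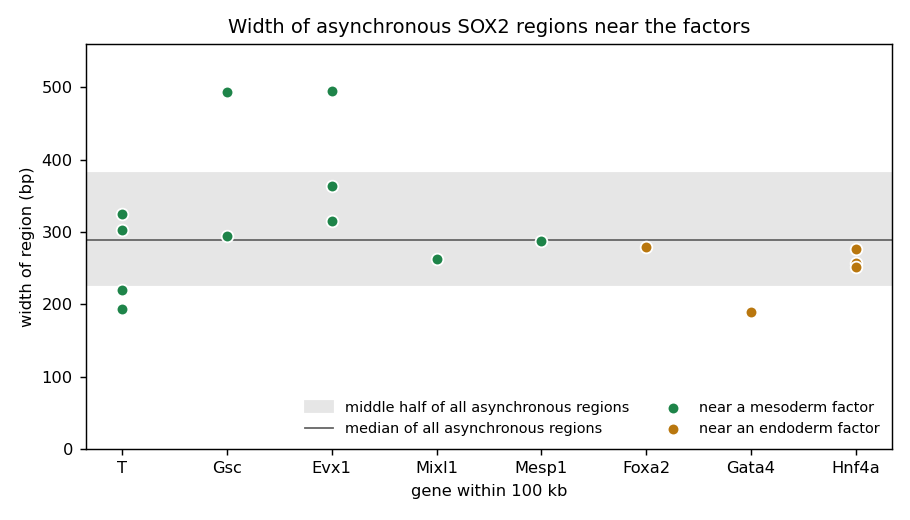
Width (bp) of each of the 16 asynchronous regions within 100 kb, by gene; green points are near mesoderm and orange points near endoderm factors, the grey band is the middle 50% of all asynchronous regions (226 to 381 bp) and the line their median (289 bp). The points of 495 bp at Evx1 and 493 bp at Gsc lie above the band, and all 5 endoderm points lie below the line.

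The order of the layers was the other way round among further factors of the same layers. Of 15 other mesoderm factors, 7 (46.7%) had an asynchronous region within 100 kb, with a mean of 1.13 per gene. Of 15 other endoderm factors, 11 (73.3%) had a region, with a mean of 1.53. Over all protein-coding genes the share was 62.4% and the mean 1.28. By share and mean count, the other mesoderm factors thus lay below all genes and the other endoderm factors above. Per 100 kb searched, the means were 0.539 for the other mesoderm and 0.712 for the other endoderm factors. Over all protein-coding genes that mean was 0.520, so by this measure neither list lay below all genes. Among the mesoderm factors, Eomes, a T-box factor of the streak that also acts in endoderm, had 5 regions, the nearest at 51.8 kb, and Tcf15 had 4. Hand1, Snai1 and Tbx20 had 2 each. Those with none included Msgn1, Lhx1, Foxf1, Foxc1, Foxc2, Isl1 and Nkx2-5. Among the endoderm factors, Onecut1 had 4 and Foxa1, Pdx1 and Cdx4 had 3 each; Cdx4, a posterior factor, also acts in mesoderm. Those with none included Sox17, Sox7 and Foxa3, although the nearest region of Sox17 was 101 kb away, just past the limit. No gene of either list had a mitotic region within 100 kb, and only 1.41% of all protein-coding genes had one.

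Factors of naive pluripotency and of the neural fate had higher mean counts than the 1.78 of the 9 genes together, though the neural mean did not exceed the 2.2 of the mesoderm factors. Per 100 kb searched, the means were 1.64 for naive pluripotency and 0.856 for neural factors. They were 0.816 for the 9 genes and 0.520 for all protein-coding genes, so the neural factors and the 9 genes were close by this measure. All 14 naive pluripotency factors had an asynchronous region within 100 kb, with a mean of 3.71 per gene; Pou5f1 and Nanog had 7 each and Esrrb had 6. Of 16 neural factors, 14 (87.5%) had a region, with a mean of 2.12, against 62.4% and 1.28 for all protein-coding genes. Zfp521 had 5, Neurog1 had 4 and Pax6, Pax3, Six3, Otx2 and Meis1 had 3 each, while Sox3 and Pou3f2 had none. Within 10 kb, the shares were 78.6% of the naive pluripotency and 56.2% of the neural factors. They were 44.4% of the 9 mesoderm and endoderm factors and 23.7% of all protein-coding genes. These shares describe lists of 9 to 16 genes, and their differences were not tested.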

How the data were processed

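Per the submitters' processing notes, Bowtie2 2.2.1, MACS2 and the build mm10 were used, and the version of MACS2 is not given in the sources used here. The authors, per the deposited names, called peaks of ChIP against input once per condition on 3 pooled replicates and removed blacklisted regions. What the authors deposited are start and end positions (unit other, in bp) without a score, count or p-value, so replicates have no values of their own and depth is unknown. Starts were converted to count from 1, and 181 of 10532 asynchronous entries that repeated another's coordinates were merged. Gene spans came from RefSeq GRCm38.p6 (21883 protein-coding genes on 21 chromosomes), which gives no exons; strand and promoter sequence came from RefSeq promoter windows, matched for 6 of the 9 genes. Distances run from a region's midpoint to the gene span. Named genes were the 9 factors, the nearest gene of each of their regions, and in the other lists (81 listed genes in all, each matched) the genes with the highest 3 counts, ties included, or with none. Some genes that this rule selects are not reported here. Further neighbours and the regions beyond 100 kb were named after their values were seen. The genes and lists were chosen with earlier results of these data known, so no test was made over them. Distances and counts were computed with numpy 2.4.6 and pandas 2.3.3, and checked on simulated regions against a plain loop. Alternatives covered the window, the rule of assignment, width, merging, the division into layers and each gene left out.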

Additional observations from a re-analysis of the deposited data

How the results depend on the processing

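Of 40 recomputed values over 6 results, 25 stayed within 1.5 times of the value reported and 15 moved further. Only the mesoderm to endoderm ratio has a direction, and 0 of its values turned round. Some values could not move. No region counted for the 9 genes had repeated coordinates to merge, and an overlap count of 0 stays 0 when more overlap is required. Genes with a mitotic region, and mitotic regions, numbered 0 within 10 kb, 0 within 50 kb and 2 within 200 kb, and 0 genes were the nearest of a mitotic region. Genes with an asynchronous region numbered 4 of the 9 within 10 kb, against 23.7% of all protein-coding genes. They numbered 5 (T, Gsc, Evx1, Foxa2 and Gata4) when a region counted for its nearest gene only, against 25.8%. With regions wider than the list median they numbered 3 (T, Gsc and Evx1). No share over all protein-coding genes is given for that setting, so the 3 cannot be set against all genes. Asynchronous regions numbered 5 within 10 kb, 27 within 200 kb and 7 above the median width. The mesoderm to endoderm ratio of mean regions per gene was 1.16 within 200 kb and 1.32 to 3.30 with each gene left out, the highest without Hnf4a; with regions above the median width it has no value, since endoderm factors had 0. With Gsc and Mixl1 counted as endoderm it was 2.00. No paired analysis was possible because the replicates of a condition were pooled before peaks were called; no replicate could be left out for the same reason. Region lists without depth limit each absence to absence from the list.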

Other observations

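Genes of the signals that induce or limit these layers were also near asynchronous regions. Of 12 such genes, 9 had a region within 100 kb and 8 (66.7%) within 10 kb, against 62.4% and 23.7% of all protein-coding genes. Lefty1, a Nodal antagonist, had 4 regions, and Lefty2, its neighbour, and Wnt3, a ligand that starts the streak, had 3 each. The windows of Lefty1 and Lefty2 overlap, so their counts are not of separate regions. The asynchronous region at 180888572 to 180889090, for example, is counted for both. Nodal itself had 2, the nearest at 1.94 kb. Tdgf1, the Nodal co-receptor, and the antagonists Cer1 and Chrd had none, with nearest regions at 194, 126 and 129 kb. The mitotic region counted for Mixl1 lies between Mixl1 and Lefty2 and is also counted for Lefty2, at 100.0 kb, which is just inside the limit.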
